A study of Mus musculus with 24 samples.

Results

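Hexokinases and phosphofructokinases catalyse the entry and the control steps of glycolysis. Their mRNAs were followed in the left ventricle of diabetic and non-diabetic mice with and without a GLUT4 transgene. The 10 genes were chosen by name: the hexokinases Hk1, Hk2 and Hk3, the phosphofructokinase subunits Pfkm, Pfkl and Pfkp, and the bifunctional regulators Pfkfb1, Pfkfb2, Pfkfb3 and Pfkfb4. They are 10 of 36413 gene names on the array and are read by 14 probes, of which 12 passed the background filter. All 10 genes were tested, among 28232 genes in all.

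The study used 24 male mice, 6 in each of 4 groups, with 1 Agilent 1-colour microarray for each left ventricle. The mG4H STZ mice had GLUT4, the insulin-responsive glucose transporter, as a transgene that can be switched on in cardiomyocytes, and were made diabetic with streptozotocin (STZ), which kills pancreatic beta cells, in 5 daily doses of 55 mg per kg. The CON STZ mice were controls given the same STZ course, the mG4H VEH mice carried the transgene and received citrate buffer, and the CON VEH mice were controls given buffer. Induction of the transgene began 2 weeks after STZ and the hearts were taken 2 weeks later, with the right ventricle removed. The age and strain of the mice, the promoter of the transgene, the inducing agent and whether CON mice received that agent are not given in the sources used here. Per the labels, every group shared at least 1 pair of siblings with another group, and which mice these were is not stated.

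Hexokinases phosphorylate glucose as it enters the cell, which traps it there. Hk1 is the widely expressed form, Hk2 is the insulin-regulated form of heart, skeletal muscle and fat, and Hk3 is found mainly in white blood cells. Phosphofructokinase adds a further phosphate to fructose phosphate, the committed step of glycolysis, and is a tetramer of muscle (Pfkm), liver (Pfkl) and platelet (Pfkp) type subunits. The bifunctional PFKFB enzymes make and break down a fructose bisphosphate that strongly activates phosphofructokinase. Pfkfb2 encodes the cardiac form, which kinases downstream of insulin activate by phosphorylation. Pfkfb1 is the form of liver and skeletal muscle, Pfkfb3 is inducible and has a high ratio of kinase to phosphatase activity, and Pfkfb4 was first known from testis.

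The probes behind the main results are shown by the first 30 of their 60 bases, because all values below are readings of these stretches. Positions are those of the array files on mm9, and no exon or untranslated region was assigned here.
Hk2 probe, chr6:82675056-82675115, minus strand: tagtgagcgttttgtcatcatgtacagtag
Pfkfb2 probe, chr1:132586122-132586181, minus strand: tatactacagggcttttttcttgtggtata
Pfkfb4 brighter probe, chr9:108934652-108934711, plus strand: ttatcctggttttcacttgtgcattgcact
Pfkfb3 brighter probe, chr2:11393453-11393512, minus strand: tcctttcagacatctgtgtagtttgcagtt
Pfkfb3 dimmer probe, chr2:11404189-11405602, minus strand: cactgcgtgaacaggacaagtactactatc
Pfkm probe, chr15:97962713-97962772, plus strand: acaggctgggtctctctagtgctacggcta
Pfkp brighter probe, chr13:6581718-6583872, minus strand: caaactgaaggggtcccagggcacagggaa
The dimmer Pfkfb3 probe covers 1414 bases of the genome and the brighter Pfkp probe 2155 bases, so both lie across a gap between exons. The Pfkm probe was read by 10 spots on each array and the other member probes by 1.

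The sequences upstream of Hk2, Pfkfb2 and Pfkfb4 are shown because these genes were lower together in CON STZ ventricles. They are 250 bases before the annotated start, from RefSeq on GRCm38.p6, a later build than that of the probes, read along the gene's strand. Capitals mark each match, on either strand, to the E-box CACGTG, the hypoxia factor core ACGTG, the GC box GGGCGG and CCAAT. The FoxO motif GTAAACA was searched as well.
Hk2, chr6:82774455-82774704, minus strand: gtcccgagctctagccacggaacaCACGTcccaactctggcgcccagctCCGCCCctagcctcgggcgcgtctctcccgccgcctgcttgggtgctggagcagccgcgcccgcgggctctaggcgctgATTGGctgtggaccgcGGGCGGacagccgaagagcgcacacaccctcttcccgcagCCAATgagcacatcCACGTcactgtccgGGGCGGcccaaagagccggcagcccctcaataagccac
Pfkfb2, chr1:130715822-130716071, minus strand: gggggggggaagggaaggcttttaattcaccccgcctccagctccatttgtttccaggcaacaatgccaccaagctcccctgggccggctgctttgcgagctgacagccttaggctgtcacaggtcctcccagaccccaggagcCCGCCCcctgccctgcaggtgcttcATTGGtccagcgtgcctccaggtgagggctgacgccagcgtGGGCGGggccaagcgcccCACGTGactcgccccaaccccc
Pfkfb4, chr9:108991652-108991901, plus strand: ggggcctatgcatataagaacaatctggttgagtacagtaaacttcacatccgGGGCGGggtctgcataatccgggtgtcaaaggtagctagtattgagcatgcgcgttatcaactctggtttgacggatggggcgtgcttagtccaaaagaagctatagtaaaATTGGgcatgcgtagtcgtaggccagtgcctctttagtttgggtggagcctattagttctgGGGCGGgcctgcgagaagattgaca
The Hk2 stretch holds 2 ACGTG cores, 3 GC boxes and 2 CCAAT motifs, and no E-box. The Pfkfb2 stretch holds 1 E-box 22 bases before the start, which contains the ACGTG core on both strands, with 2 GC boxes and 1 CCAAT. The Pfkfb4 stretch holds 2 GC boxes and 1 CCAAT. RefSeq lists 2 further starts for Pfkfb2, whose windows hold none of these motifs apart from 1 ACGTG. Among 32851 promoter windows of 300 bases the E-box occurs in 7.15%, ACGTG in 19.6%, the GC box in 35.7% and CCAAT in 37.4%. GTAAACA occurs in 3.65% of the same windows, which do not cover every chromosome. Of the 20 windows of the 10 genes, 3 hold the E-box, 9 ACGTG, 8 the GC box, 6 CCAAT and 0 GTAAACA. These matches describe letters in a window and not binding.

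All levels are log2 signal minus the log2 of the array's 75th percentile, so that 0 is that percentile, and levels are compared only within a probe. The brightest probe of each gene was well above background on 24 of 24 arrays. The share of spots well above background lay between 58.5% and 76.3%, and the 75th percentile of the signal between 370 and 583. Precision rests on the 6 arrays in each group and on a spread for each gene that all 4 groups share. For Hk2 and Pfkfb2 the STZ groups spread more than the buffer groups. Mice of all 4 groups, 1 or 2 of each, shared each of slides 1 to 3, whereas slide 4, scanned on another day, held 1 mG4H VEH and 1 CON VEH mouse. Blood glucose in week 4, whose unit the labels do not give, averaged 553.8 ± 51.9 in mG4H STZ, 600.8 ± 0.408 in CON STZ, 139.3 ± 7.69 in mG4H VEH and 140.7 ± 19.8 in CON VEH mice (SD, n = 6 each). The CON STZ values lay between 600 and 601, and mG4H STZ replicates 3, 4 and 5 also stood at 601. An upper limit of the measurement is therefore possible in both STZ groups and was not tested. Summed cardiomyocyte markers (8 genes) ran from 11.60 to 11.94 in mG4H STZ, 11.51 to 11.99 in CON STZ, 11.58 to 11.99 in mG4H VEH and 11.59 to 12.03 in CON VEH arrays.

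Slc2a4, the gene of GLUT4 itself, did not stand higher in transgenic ventricles on its 10-spot probe (chr11:69756073-69756132 of mm9). It averaged 6.36 ± 0.43 in mG4H STZ, 6.16 ± 0.31 in CON STZ, 6.54 ± 0.10 in mG4H VEH and 6.73 ± 0.15 in CON VEH ventricles (SD, n = 6 each). The genotype differences were 0.20 under STZ (limma adjusted p = 0.999995) and -0.20 under buffer (adjusted p = 0.999892). Whether this probe reads the transgene is not given in the sources used here, so it does not check the genotype labels. By genotype, the groups are therefore those of the labels.

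**Figure D1:**
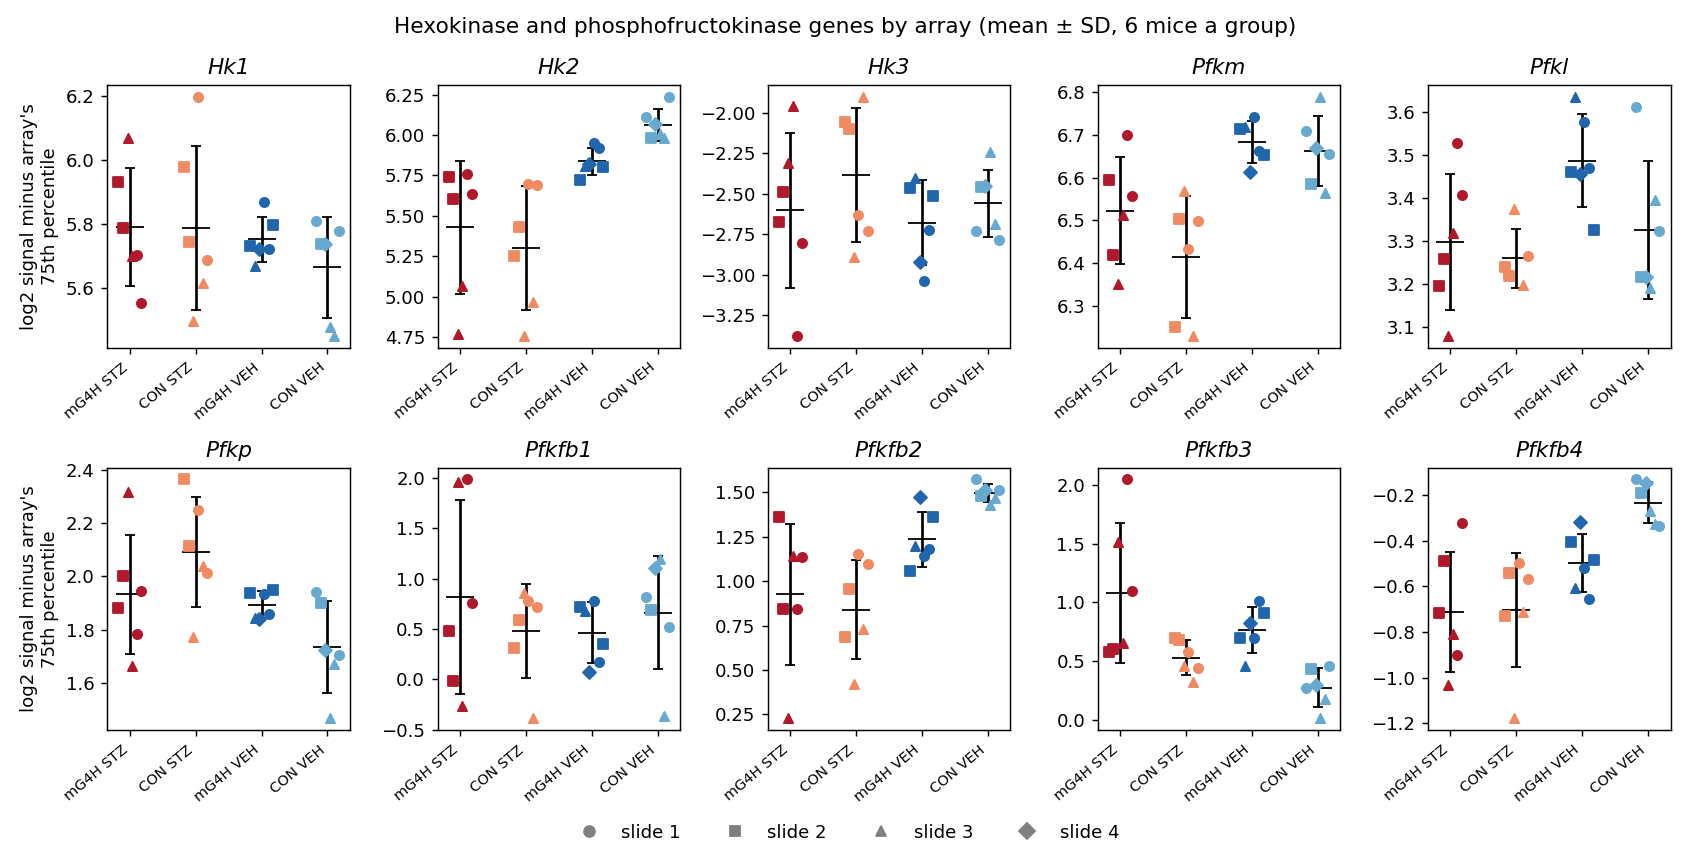
Level of the brightest probe of each gene on every array (y axis, log2 signal minus the array's 75th percentile; scales differ between panels) by group, with mean and SD as bars (6 mice a group, 5 for Pfkl in CON STZ) and slides as symbols. Hk2, Pfkfb2 and Pfkfb4 are lower in all 6 CON STZ than in all 6 CON VEH arrays, and the 4 lowest Hk2 values are the STZ arrays on slide 3.

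STZ diabetes in mice without the transgene was examined first. Hk2, Pfkfb2 and Pfkfb4 fell in CON STZ ventricles, and no member passed the test as higher. Thus 3 of the 10 genes passed limma's test over all genes, all 3 lower, against 3.96% of all tested genes in either direction and 2.3% in the lower direction. The 10 genes were chosen with earlier results of these data known, so these shares are not an independent comparison. At an unadjusted p under 0.05 there were 5 of 10 genes, these 3 with Pfkm and Pfkp, against 4026 of 28232 genes. The median log2 fold change of the 10 genes was -0.12, against 0.027 over all genes. The 3 genes were an insulin-regulated hexokinase and, from the bifunctional regulators, the cardiac form and the form first known from testis.

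Hk2 had a lowest, median and highest level of 4.76, 5.34 and 5.70 in CON STZ ventricles, against 5.98, 6.04 and 6.24 in CON VEH ventricles. The groups did not overlap, as held for 2.61% of genes that were lower in CON STZ. The means were 5.30 ± 0.38 and 6.06 ± 0.10 (SD, n = 6), a log2 fold change of -0.76 ± 0.17 (SE) or 1.70-fold lower (limma adjusted p = 0.0102). The log2 fold change was -0.48, -0.64 and -1.13 within slides 1, 2 and 3, and -0.77 with slide as a block (adjusted p = 0.000942). In tissue RNA, fewer cells of a type and less RNA per cell cannot be told apart.

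The other hexokinases did not pass. Hk1 ran from 5.50 to 6.20 in CON STZ with a median of 5.72, and from 5.45 to 5.81 in CON VEH with a median of 5.74. The groups overlapped (log2 fold change 0.12 ± 0.11, SE, adjusted p = 0.803), and the second Hk1 probe (chr10:61732717-61732776, minus strand) gave 0.025 (adjusted p = 0.996 over all probes, of which 3.08% passed). Hk3, whose level was low on its scale in all groups, averaged -2.38 ± 0.41 in CON STZ and -2.56 ± 0.21 in CON VEH (log2 fold change 0.17, 95% interval -0.25 to 0.59, adjusted p = 0.902). The macrophage and monocyte markers, of a cell type known for Hk3, summed to 4.10 to 4.97 in CON STZ and 4.38 to 4.54 in CON VEH arrays, with 0 of 7 past the test. Their part in the Hk3 values was not tested.

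Of the phosphofructokinase subunits none passed, and the muscle and platelet types pointed opposite ways. Pfkm, the main subunit of striated muscle, had a lowest, median and highest level of 6.23, 6.47 and 6.57 in CON STZ, against 6.57, 6.66 and 6.79 in CON VEH. The groups met at their edges (log2 fold change -0.25 ± 0.073, SE, adjusted p = 0.0587), with -0.22, -0.21 and -0.28 within slides 1, 2 and 3. Pfkp ran from 1.77 to 2.36 in CON STZ and from 1.47 to 1.94 in CON VEH on its brighter probe. Its log2 fold change was 0.36 ± 0.11 (SE, adjusted p = 0.0634), and 0.31, 0.34 and 0.34 within the slides, while the dimmer probe (chr13:6579124-6579183) gave 0.31 ± 0.18 (adjusted p = 0.524). Both genes lay just outside the threshold, and both crossed it with quantile normalization (adjusted p = 0.0480 for Pfkm and 0.0438 for Pfkp). Pfkl averaged 3.26 ± 0.068 in 5 CON STZ ventricles and 3.33 ± 0.16 in 6 CON VEH ventricles (adjusted p = 0.937). The spot of CON STZ replicate 4 was marked an outlier by the scanner software and left out.

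Of the bifunctional enzymes the cardiac form changed most clearly. Pfkfb2 had a lowest, median and highest level of 0.42, 0.84 and 1.15 in CON STZ ventricles, against 1.43, 1.49 and 1.57 in CON VEH ventricles. The groups did not overlap, and the CON VEH mice lay close together. The log2 fold change was -0.66 ± 0.15 (SE), 1.57-fold lower (limma adjusted p = 0.0132), with -0.42, -0.66 and -0.87 within slides 1, 2 and 3. Pfkfb4 had -1.18, -0.64 and -0.50 in CON STZ, against -0.34, -0.23 and -0.13 in CON VEH. These groups did not overlap either, and the log2 fold change was -0.47 ± 0.12 (SE), 1.39-fold lower (adjusted p = 0.0248). It was -0.30, -0.44 and -0.65 within the slides. The Pfkfb4 call was lost without slide 4 (adjusted p = 0.0632) and without any 1 of CON STZ replicates 1 and 3 and CON VEH replicates 1, 2 and 3 (adjusted p = 0.0521 to 0.0587).

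The remaining regulators did not pass. Pfkfb3 averaged 0.53 ± 0.15 in CON STZ and 0.28 ± 0.17 in CON VEH (log2 fold change 0.25, 95% interval -0.14 to 0.65, adjusted p = 0.702). Pfkfb1 varied widely, from -0.39 to 0.86 in CON STZ and from -0.36 to 1.20 in CON VEH (log2 fold change -0.18, 95% interval -0.90 to 0.54, adjusted p = 0.970). The dimmer probes of Pfkfb3 and Pfkfb4 were well above background on 5 and 0 of 24 arrays and were not tested. The 5 arrays for Pfkfb3 were 3 mG4H STZ and 2 CON STZ arrays.

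When each array was scaled by its median in place of its 75th percentile, none of the 10 genes passed, although the values were as large: -0.81 for Hk2 (adjusted p = 0.527), -0.70 for Pfkfb2 (adjusted p = 0.568) and -0.51 for Pfkfb4 (adjusted p = 0.842). Genes past the threshold then numbered 75 of all those tested, against 1117. With 1 array left out in turn, Hk2 stayed between -0.84 and -0.66 and Pfkfb2 between -0.72 and -0.57, and both passed in 24 of 24 fits.

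**Figure D2:**
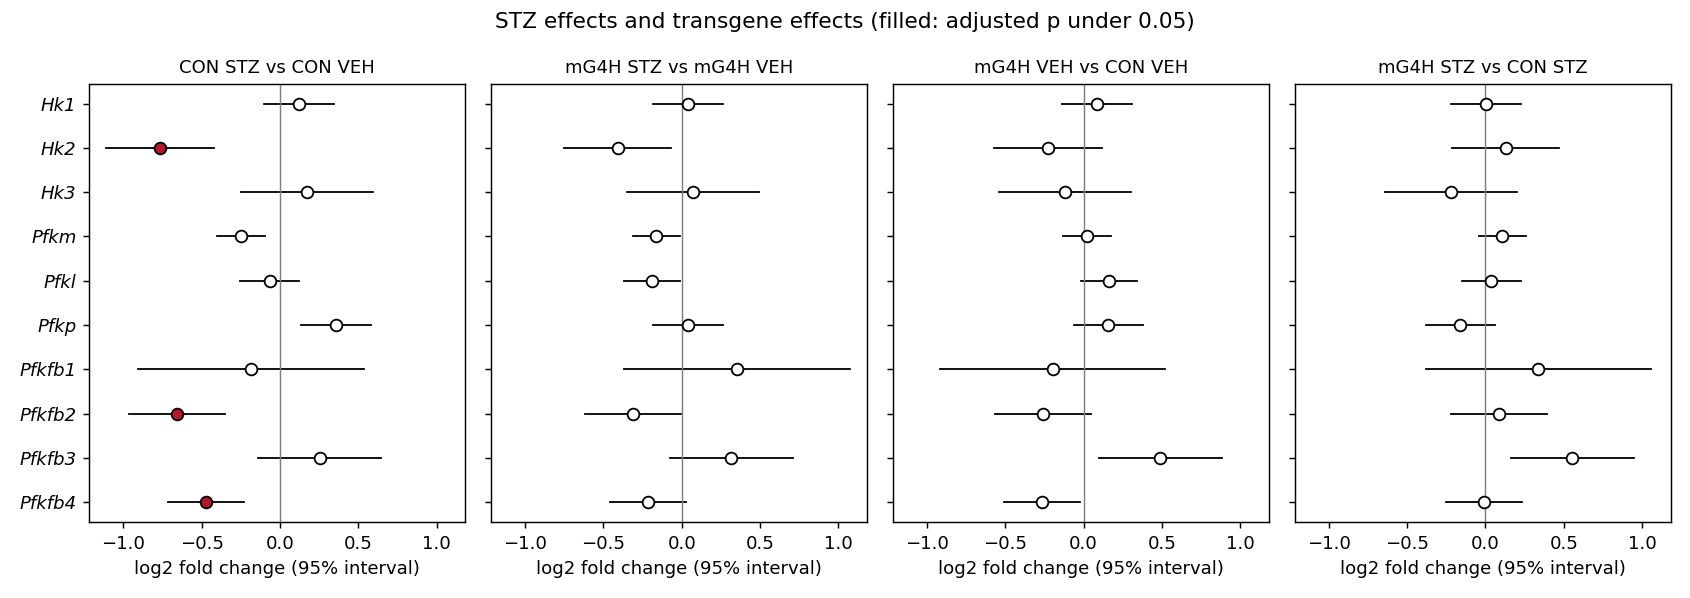
Log2 fold change (x axis) of the 10 genes with 95% intervals from limma for STZ against buffer in each genotype and mG4H against CON under each treatment, with filled points where adjusted p is under 0.05. The filled points are Hk2, Pfkfb2 and Pfkfb4 in CON STZ against CON VEH.

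The same comparison in transgenic ventricles gave no call among the 10 genes, where 0.266% of all genes passed. At an unadjusted p under 0.05 there were 4 of 10 genes, Hk2, Pfkm, Pfkl and Pfkfb2, all lower, against 3954 of 28232 genes. Hk2 had a lowest, median and highest level of 4.77, 5.62 and 5.76 in mG4H STZ, against 5.72, 5.81 and 5.95 in mG4H VEH. The log2 fold change was -0.41 ± 0.17 (SE, adjusted p = 0.256). Of the mG4H STZ mice, 2 fell within the mG4H VEH range, 2 lay just under it, and replicates 3 and 4, both on slide 3, lay far below. Within slides 1, 2 and 3 the log2 fold change was -0.24, -0.091 and -0.89.

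Pfkfb2 had 0.23, 0.99 and 1.36 in mG4H STZ, against 1.06, 1.19 and 1.48 in mG4H VEH, with overlap (log2 fold change -0.31 ± 0.15, SE, adjusted p = 0.353). Pfkfb4 had -1.03, -0.76 and -0.32 in mG4H STZ, against -0.65, -0.50 and -0.32 in mG4H VEH (log2 fold change -0.21, adjusted p = 0.438). In both STZ groups the mouse lowest for Hk2 was also the lowest for Pfkfb2 and Pfkfb4, replicate 3 in each case. Pfkm averaged 6.52 ± 0.12 in mG4H STZ and 6.68 ± 0.049 in mG4H VEH (log2 fold change -0.16, adjusted p = 0.320), and Pfkl 3.30 ± 0.16 and 3.49 ± 0.11 in the same groups (log2 fold change -0.19, adjusted p = 0.319). Pfkfb1 spread widely in mG4H STZ, with a lowest, median and highest level of -0.27, 0.62 and 1.99, against 0.075, 0.52 and 0.78 in mG4H VEH. Replicates 5 and 3 of mG4H STZ were highest, at 1.99 and 1.96, and were also the highest of that group for Pfkfb3. Pfkp gave 0.039 (95% interval -0.18 to 0.26), Hk1 0.039, Hk3 0.074, Pfkfb1 0.35 and Pfkfb3 0.32 as log2 fold change, with adjusted p between 0.491 and 0.925.

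Whether STZ acted differently in the genotypes was tested directly. No member passed, and 0% of all genes did. For Hk2 the difference, mG4H minus CON, was 0.36 (95% interval -0.13 to 0.84), for Pfkfb2 0.35 (-0.086 to 0.78) and for Pfkfb4 0.26 (-0.088 to 0.60), each with limma adjusted p = 0.999974. At an unadjusted p under 0.05 there was 1 of 10 genes, Pfkp, at -0.32 (unadjusted p = 0.0467 from limma, adjusted p = 0.999974), against 500 of 28232 genes. These 3 intervals include 0 and also a difference as large as each gene's fall in CON STZ.

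**Figure D3:**
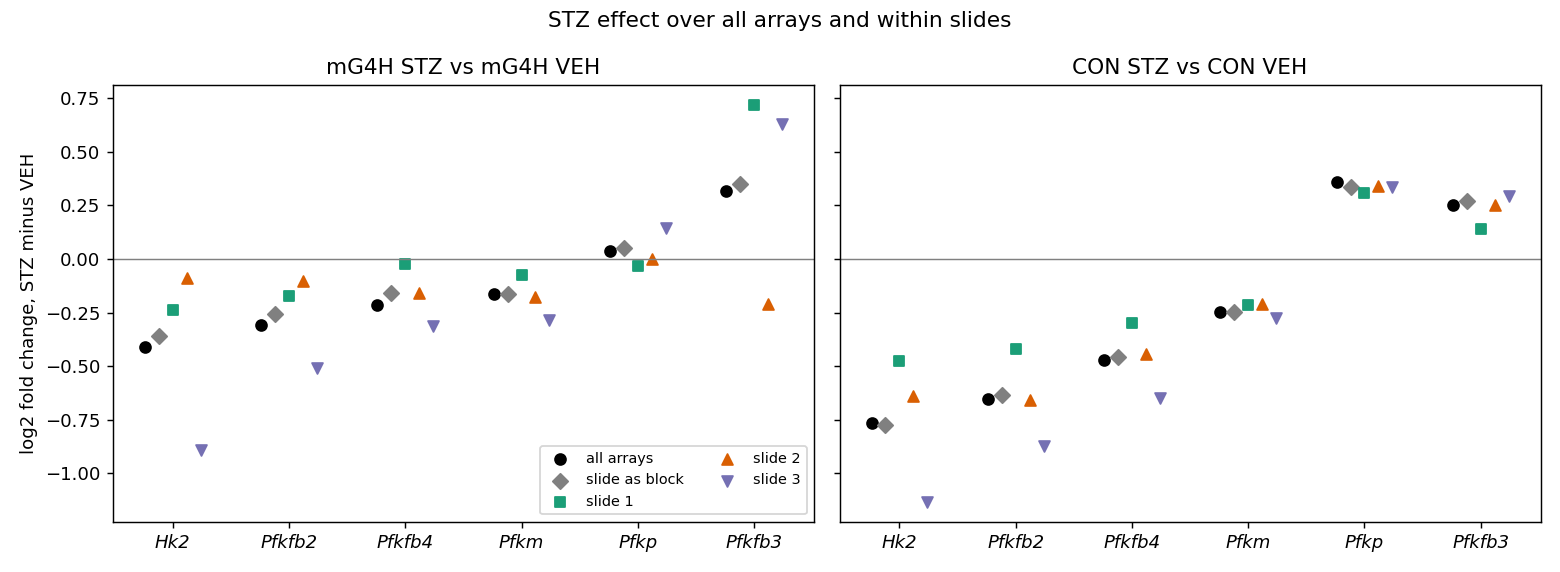
Log2 fold change of STZ against buffer (y axis) in mG4H and in CON ventricles for 6 genes, over all arrays, with slide as a block, and within each slide that held all groups. In CON the Hk2, Pfkfb2, Pfkfb4 and Pfkm values are negative and the Pfkp values positive on all 3 slides, and the Hk2 value runs from -0.48 to -1.13.

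The effect of the transgene under buffer gave no call among the 10 genes, where 0.0815% of all genes passed. At an unadjusted p under 0.05 there were 2 of 10, Pfkfb3 and Pfkfb4, against 811 of 28232 genes. Hk2 was lower in every mG4H VEH than in every CON VEH ventricle, 5.72 to 5.95 against 5.98 to 6.24, a separation seen downwards for 0.616% of genes. The log2 fold change was nevertheless small beside the spread shared by the 4 groups (-0.23 ± 0.17, SE, adjusted p = 0.999892), with -0.24, -0.22 and -0.19 within slides 1, 2 and 3. That shared spread was wider than the spread of the buffer groups. The Hk2 SD was 0.083 in mG4H VEH and 0.099 in CON VEH, against 0.41 in mG4H STZ and 0.38 in CON STZ. With the 2 groups alone Hk2 did not pass either, while 100 genes passed, against 23 in the main fit. Pfkfb3 had a lowest, median and highest level of 0.46, 0.76 and 1.01 in mG4H VEH, against 0.013, 0.28 and 0.46 in CON VEH. The log2 fold change was 0.49 ± 0.19 (SE, adjusted p = 0.999892), and 0.49, 0.37 and 0.36 within the slides. Pfkfb4 gave -0.26 (95% interval -0.51 to -0.021) and Pfkfb2 -0.26 (-0.57 to 0.046), and the other 6 genes between -0.20 and 0.16, each with adjusted p = 0.999892. The values of this comparison and of the STZ comparison in controls share the CON VEH mice.

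Under STZ the genotypes differed in no member, where 0.0106% of all genes passed. Only Pfkfb3 had an unadjusted p under 0.05 among the 10, against 1003 of 28232 genes. It had a lowest, median and highest level of 0.58, 0.87 and 2.05 in mG4H STZ, against 0.32, 0.52 and 0.70 in CON STZ. Replicates 5 and 3 of mG4H STZ lay apart from their group, at 2.05 and 1.51, and 3 of the other mice overlapped CON STZ. The log2 fold change was 0.55 ± 0.19 (SE, adjusted p = 0.812), with 1.06, -0.096 and 0.69 within slides 1, 2 and 3. Hk2 differed by 0.13 (95% interval -0.21 to 0.47), Pfkfb2 by 0.087 (-0.22 to 0.39), Pfkfb4 by -0.0076 (-0.25 to 0.24) and Pfkm by 0.11 (-0.043 to 0.26), each with adjusted p = 0.999995.

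**Figure D4:**
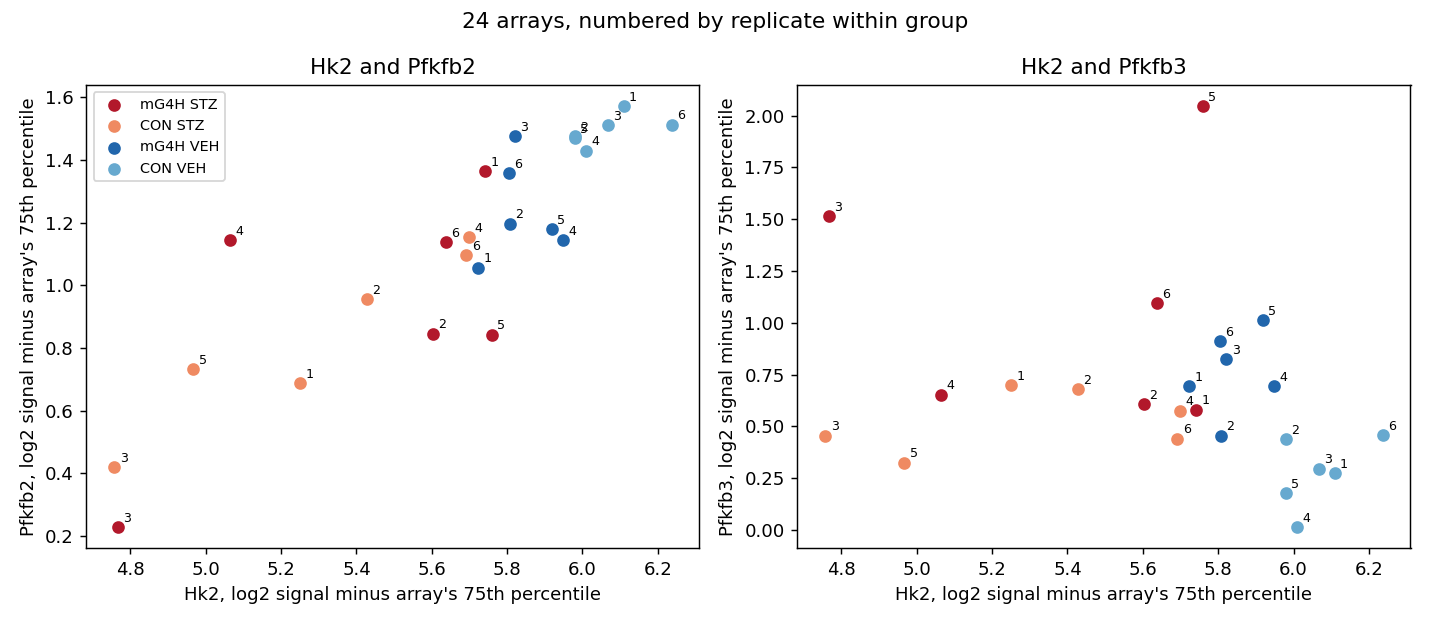
Each of the 24 arrays by its Hk2 level (x axis) and its Pfkfb2 or Pfkfb3 level (y axis), as log2 signal minus the array's 75th percentile, coloured by group and numbered by replicate. CON VEH arrays lie at the upper right for Pfkfb2 and the lower right for Pfkfb3, and mG4H STZ replicates 3 and 5 have the highest Pfkfb3 levels.

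Set in order of their group means, no pair of neighbouring groups passed the test for any of the 10 genes. For Hk2 the order from the lowest was CON STZ (5.30), mG4H STZ (5.43), mG4H VEH (5.84) and CON VEH (6.06), and Pfkfb2 had the same order (0.84, 0.93, 1.23 and 1.495). Pfkfb3 ran from the highest mG4H STZ (1.08), mG4H VEH (0.76), CON STZ (0.53) and CON VEH (0.28). Its ends, mG4H STZ and CON VEH, did not overlap and differed by 0.81 ± 0.19 (SE, 1.75-fold higher, limma adjusted p = 0.0374). The pair was picked by its group means, which the adjustment over genes does not cover. It differs in genotype and in STZ together, so the 2 cannot be told apart here. Of all genes 1.07% passed between these groups, and 0.662% were higher without overlap. This call held in 15 of 24 fits that left out 1 array. It was lost without any 1 of the CON VEH mice or of mG4H STZ replicates 3, 5 and 6, and the value was 0.61 without replicate 5 (adjusted p = 0.0502). It was also lost with median scaling (adjusted p = 0.7501), the 2 groups alone (0.310), no filter on dim probes (0.0518), the replicate block (0.0559) and without slide 4 (0.0989). The difference was 1.20, 0.16 and 0.99 within slides 1, 2 and 3. Pfkfb4 passed between the same groups (-0.48, adjusted p = 0.0483) with overlap, but held in 4 of 24 such fits and was lost under the same 5 alternatives and with quantile normalization (adjusted p = 0.0642 to 0.882). Hk2 and Pfkfb2 did not overlap between them, as held for 1.24% of genes lower in mG4H STZ, and gave -0.64 and -0.57 with adjusted p = 0.0639 and 0.0635. Both passed with quantile normalization (adjusted p = 0.0362 for Hk2 and 0.0449 for Pfkfb2) and with a stricter filter, above background on all 24 arrays (0.0432 and 0.0423), and Hk2 also with normexp (0.0481) and with slide as a block (0.00896). Pfkm was lower in CON STZ than in mG4H VEH (-0.27, adjusted p = 0.0349, groups not overlapping), where 4.34% of genes passed and 3.07% were lower without overlap. For Pfkm these groups were the ends of the order, and they too differ in both genotype and treatment. That call held in 17 of 24 fits. It was lost with median scaling (adjusted p = 0.895), quantile normalization (0.0733), no filter (0.0602), the 2 groups alone (0.0694), the replicate block (0.0764) and without slide 4 (0.0555). In the same pair Hk2 gave -0.54 without overlap (adjusted p = 0.0704), and passed with slide as a block (0.0193) and with the stricter filter (0.0490).

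The enzymes around the 10 genes gave a mixed picture in CON STZ against CON VEH. Of 15 measured genes of glucose entry and hexose phosphate conversion, 1 rose and 1 fell, with a median log2 fold change of 0.031. Fbp2, the muscle fructose bisphosphatase that reverses the phosphofructokinase step, had a lowest, median and highest level of 1.82, 2.06 and 2.28 in CON STZ, against 0.55, 0.78 and 0.98 in CON VEH. It rose by 1.29 ± 0.16 (SE), 2.44-fold (limma adjusted p = 0.000115), with 1.38, 1.17 and 1.38 within slides 1, 2 and 3. In mG4H ventricles Fbp2 gave 0.76 (adjusted p = 0.0509). There it passed with quantile normalization (adjusted p = 0.0433), normexp (0.0365), the stricter filter (0.0340) and slide as a block (0.0418), and gave 0.95 without mG4H STZ replicate 2 (0.000304). The difference between the genotypes was -0.53 (95% interval -1.01 to -0.046, adjusted p = 0.999974). Slc2a4 fell by 0.58 ± 0.16 (SE, adjusted p = 0.0436), a call that held in 10 of 24 fits without 1 array and was lost without a filter (0.0610), with the replicate block (0.0909) and without slide 4 (0.112).

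Of 12 measured genes of lower glycolysis 2 fell and 0 rose, with a median of -0.088. Eno3, muscle enolase, averaged 7.90 ± 0.18 in CON STZ and 8.33 ± 0.15 in CON VEH (log2 fold change -0.44, adjusted p = 0.00869). Pkm2, pyruvate kinase of muscle type, gave -0.30 (adjusted p = 0.0367), a call lost without a filter on dim probes (adjusted p = 0.0596), with the 2 groups alone (0.0910), the replicate block (0.0657), without slide 4 (0.0937) and in 7 of 24 fits without 1 array. Of 19 genes of insulin signalling and FoxO factors 1 rose and 1 fell, with a median of 0.073. Foxo6, a FoxO transcription factor, fell by 1.99 (adjusted p = 0.00052; -1.36, -1.84 and -2.58 within slides 1, 2 and 3), and Pdpk1, the kinase that activates Akt, rose by 0.43 (adjusted p = 0.0287). The Pdpk1 call was lost with the mean of probes (adjusted p = 0.0642), the 2 groups alone (0.0517), without slide 4 (0.0684) and in 6 of 24 fits without 1 array.

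Of 8 genes of the glucose-sensing Mondo factors, their partners and targets, 2 rose and 1 fell, with a median of 0.22. Txnip, an inhibitor of glucose uptake and thioredoxin, rose by 1.18 (adjusted p = 0.000686) and Klf10, a zinc finger factor, by 0.80 (adjusted p = 0.00175). Usf2, an E-box binding factor, fell by 0.55 (adjusted p = 0.00125), but gave -0.18 as the mean of all its probes (adjusted p = 0.479). With median scaling Txnip (adjusted p = 0.0748), Klf10 (0.237), Usf2 (0.621), Eno3 (0.649), Slc2a4 (0.749), Pkm2 (0.946) and Pdpk1 (0.999993) missed the threshold, while Fbp2 and Foxo6 passed. None of 15 hypoxia factors and targets passed (median 0.068). Klf10 was also higher in mG4H VEH than in CON VEH (0.72, adjusted p = 0.0321), a call that held in 15 of 24 fits without 1 array and was lost with quantile normalization (0.0839), median scaling (0.999994) and the 2 groups alone (0.0501). In STZ against buffer in mG4H the main fit gave -1.20 for Foxo6, 0.71 for Txnip and -0.30 for Pkm2, none past the threshold. Foxo6 passed with normexp (limma adjusted p = 0.0458), with the mean of probes (0.0498) and in 2 of 24 fits without 1 array. Txnip and Pkm2 each passed in 1 of 24 such fits. In the main fit no gene of these 5 lists but Klf10 passed in the genotype comparisons. None passed in STZ against buffer in mG4H or in the difference of the STZ effects. None of the markers of 8 cell types passed in these comparisons or in CON STZ against CON VEH, although summed adipocyte markers ran from 0.60 to 2.10 in CON STZ and from -0.59 to 1.42 in CON VEH arrays, and fibroblast markers from 8.21 to 8.98 in CON STZ and from 8.26 to 8.53 in CON VEH arrays. Summed erythroid markers (4 genes) had a lowest, median and highest level of 4.97, 8.47 and 9.99 in mG4H STZ, 7.71, 8.29 and 8.61 in CON STZ, 8.58, 8.78 and 9.16 in mG4H VEH and 8.34, 8.84 and 8.96 in CON VEH arrays. Their median log2 fold change was -0.51 in CON STZ against CON VEH. The part of these markers in the results was not tested.

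The genes whose profiles over the 24 arrays were most like those of 3 members were sought after slide means were removed. The search covered 12711 genes with a gene symbol, well above background on all 24 arrays. For Hk2 these were Mterfd3, Tmprss4 and Ptcd3, with Pearson r of 0.93, 0.93 and 0.92. For Pfkfb2 they were Epha4, Ggct and Eepd1, with r of 0.92, 0.91 and 0.91, and for Pfkm they were Rpl3l, Auh and Hist4h4, with r of 0.92, 0.91 and 0.91. Before slide means were removed, r was 0.73 for Hist4h4 and 0.87 to 0.94 for the other genes named here. The arrays share their groups and their scaling, so these values are descriptions of likeness.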

How the data were processed

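Per the labels, Cy3-labelled left ventricular RNA of 24 mice was read on Agilent arrays, with 1 colour and 1 array for each mouse. The deposited files hold intensity values per spot. Per the file headers, the processed intensity is the spot signal after background subtraction within the array, with Agilent Feature Extraction 10.5.1.1, and probes are placed on mm9. The submitters' processing notes also name limma.

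From these, log2 processed intensity was computed here relative to the array's own 75th percentile, taken over 59305 gene spots. Outlier spots were left out and repeated spots averaged. Probes well above background on at least 6 of 24 arrays were kept, and the brightest stood for its gene name. One fit over all arrays (limma 3.58.1, R 4.3.3) had 4 group means and no covariate. Tests were two-sided, with Benjamini-Hochberg adjustment over 28232 genes and a threshold of 0.05. The script was tested on simulated data. Reading and plots used Python 3.11.15, numpy 2.4.6, pandas 2.3.3 and matplotlib 3.10.9.

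Groups follow the labels, and each array is 1 individual mouse. The 10 genes and the surrounding lists were chosen with earlier results of these data known. Named genes are the 10 members, Slc2a4, up to 3 genes past the threshold per list and comparison, and the 3 most similar profiles for Hk2, Pfkfb2 and Pfkm. One gene of the lists is not reported here. Alternatives were other scalings, background correction, filters, probe choice, pairwise fits, slide and replicate blocks, single slides and leaving out each array. Those for the list genes and for the ends of the group order were added after seeing the data.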

Additional observations from a re-analysis of the deposited data

Results flagged for a closer look

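Among 56 sets of 1 probe in 1 group of 6 mice (5 for Pfkl in CON STZ), 1 held a value far from the others. That is fewer than the about 1 in 20 that chance gives. The sets include the dimmer Pfkfb3 and Pfkfb4 probes, which did not pass the background filter. The brighter Pfkfb4 probe stood at -1.18 in CON STZ replicate 3, while the other 5 mice of that group lay between -0.73 and -0.50. The same mouse had the lowest Hk2 and Pfkfb2 levels of its group. Without it the Pfkfb4 log2 fold change of CON STZ against CON VEH was -0.38 (limma adjusted p = 0.0525).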

How the results depend on the processing

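Of the 10 genes, 3 passed in CON STZ against CON VEH. The number was 5 with quantile normalization and 5 when only probes above background on all 24 arrays were kept, Pfkm lower and Pfkp higher being added in both. It was 0 with median scaling and 0 on slides 1, 2 and 3 alone, where few arrays remain, and the cause of the loss with median scaling was not tested. It was 4 with normexp, 3 without a filter, with the mean of probes, with the 2 groups alone and with a slide block, but 2 when slide 4 was left out. Leaving out 1 array gave 2 to 5 genes, with 5 without mG4H STZ replicate 3, 4 without CON STZ replicate 3 and 4 without mG4H STZ replicate 5. In mG4H STZ against mG4H VEH, the genotype comparisons under STZ and under buffer and the difference of the STZ effects, none of the 10 genes passed under any alternative run. The calls between the ends of the group order, which did change, are given with them. Leaving those out, 640 member values came from alternatives other than leaving out 1 array, with single slides and the fit without slide 4 included. Of these, 582 kept direction and side of the threshold, 40 changed sign without a call, 13 lost and 5 gained a call, and 0 called values changed sign.

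Genes past the threshold in CON STZ against CON VEH were 1117, 75 with median scaling (35 higher), 643 without slide 4, 0 on single slides, and 637 to 1641 without 1 array. In mG4H STZ against mG4H VEH they were 75, against 117 with quantile normalization, 6 with median scaling, 31 without a filter, 137 with the stricter filter, 43 with the mean of probes, 0 with the 2 groups alone, 48 with the slide block, 23 without slide 4 and 17 to 643 without 1 array. In mG4H VEH against CON VEH they were 23, against 8, 100 and 14 with median scaling, the 2 groups alone and no slide 4, and 13 to 38 without 1 array. In mG4H STZ against CON STZ they were 3, against 0 with normexp, 1 with the mean of probes, 0 with the 2 groups alone and 2 to 12 without 1 array. For the difference of the STZ effects they were 0, against 1 with the slide block, 1 without slide 4 and 0 to 1 without 1 array, and a fit of 2 groups alone cannot give it. Whether replicate numbers pair the mice cannot be told from the arrays. Of 36 same-numbered pairs 16 correlated above 0.1 (range -0.60 to 0.66), and 8 of 24 arrays correlated best with their own number. Some same-numbered pairs shared a slide, including the pair at 0.66, so number and slide are not separate there. With the replicate block 3 of the 10 genes passed in CON STZ against CON VEH and 0 in the other 4 planned comparisons, and 937 genes in all passed in CON STZ against CON VEH.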
